A study of Mus musculus with 9 samples.

Results

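The uterus of adult female mice that had received tamoxifen as newborns and primidone as adults was compared with the uterus of control mice. The comparison rests on 6 of the 9 libraries of the series, 3 from tamoxifen+primidone mice and 3 from control mice, and covers all genes of the deposited count table: 15186 of its 18094 genes had enough counts to be tested. Per the labels, tamoxifen+primidone mice were given tamoxifen at 1 mg/kg on days 1 to 5 of life and, from week 10, 2 mg/kg of primidone daily over 3 weeks. Control mice received what the labels call a vesicle treatment, read here as the vehicle, and all mice were 13 weeks old at sampling. The 3 mice given tamoxifen alone, at the same dose and days, entered the same statistical fit. For some genes and lists, not all, their levels are set beside those of the 2 groups compared. No group received primidone alone, so in this comparison what neonatal tamoxifen and adult primidone each contributed cannot be told apart. Strain, stage of the estrous cycle, time of day at collection, and whether litters or cages were shared were not stated in the sources used here. Replicates are libraries numbered 1 to 3 in each group by their labels, and p-values measure the spread between these libraries.

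Tamoxifen is a selective estrogen receptor modulator, which blocks the receptor in some tissues and activates it in others, the uterus among them. Given to newborn mice it is used to model adenomyosis, in which endometrial glands and stroma grow into the muscular wall of the uterus. Primidone is an anticonvulsant related to the barbiturates that is partly converted to phenobarbital, an inducer of drug-metabolizing enzymes in liver, and it also blocks the cation channel TRPM3. The uterus is made of a lining epithelium with glands, a stroma of fibroblasts that holds many immune cells, natural killer cells among them, a smooth muscle wall and an outer mesothelium. The epithelium responds to estrogen with secretion and cell division, and the stroma to progesterone. Like most tissues it also holds a circadian clock, in which ARNTL (BMAL1) and CLOCK activate genes with E-box sequences, among them the repressors PER, CRY, NR1D and BHLHE, which in turn shut the activators down.

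Total counts of the 6 libraries ran from 36847379 to 39169029. On the first principal component of these 6, with 40.44% of the variance, control libraries lay between −38.94 and −29.16 and tamoxifen+primidone libraries between 23.39 and 39.51. On the second, with 19.93%, tamoxifen+primidone 1 lay at 39.28 and replicates 2 and 3 at −22.88 and −22.42, while control libraries lay at 0.77, 22.22 and −16.99. The biological coefficient of variation was 15.39% in control and 23.59% in tamoxifen+primidone libraries. Markers of the labelled tissue were present: all 38 epithelial and 25 stromal genes and 33 of 34 smooth muscle genes were tested. Hoxa11, which patterns the uterus, stood at 93.4, 89.4 and 66 CPM in control and 118, 107 and 120 CPM in tamoxifen+primidone libraries.

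Against control, 325 genes rose and 487 fell in the tamoxifen+primidone uterus (edgeR quasi-likelihood test, Benjamini-Hochberg adjusted p under 0.05 over all genes tested), which is 5.35% of the genes tested, 2.14% higher and 3.21% lower. Of them 111 rose and 93 fell by over 2-fold. The 2 groups did not overlap in CPM (counts scaled to a common library size) for 4425 genes, 29.1% of those tested. Of the 812 called genes 811 were without overlap, so its mention for a called gene below adds little to the call. The median log2 fold change over all genes was 0.01. Scaling by upper quartiles raised the share of higher calls from 40% to 51.9%, and limma on log2(FPKM + 1) gave 66.7%. The number of calls depended on single libraries: it was 122 without control 1, 178 without control 3, 334 without tamoxifen+primidone 2 and 363 without control 2. In all, 105 genes, 29 higher and 76 lower, passed in every fit that lacked 1 of the 9 libraries. Against tamoxifen alone, 2 genes passed (0.0132%), Hgfac and Tmprss11d, both lower in tamoxifen+primidone libraries, where 2096 genes had an unadjusted p under 0.05. This count was not stable. It was 578 with DESeq2, 53 with a replicate block, 21 without a low-count filter and 9 with RLE factors. It was 85 without tamoxifen+primidone 1, 17 without tamoxifen 2, 15 without tamoxifen+primidone 3, 11 without tamoxifen 3, 5 without tamoxifen+primidone 2, 1 without tamoxifen 1 and 0 without control 1, where 1784 genes had an unadjusted p under 0.05. Statements below that a gene did or did not pass against tamoxifen are of the edgeR fit of all 9 libraries.

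**Figure D1:**
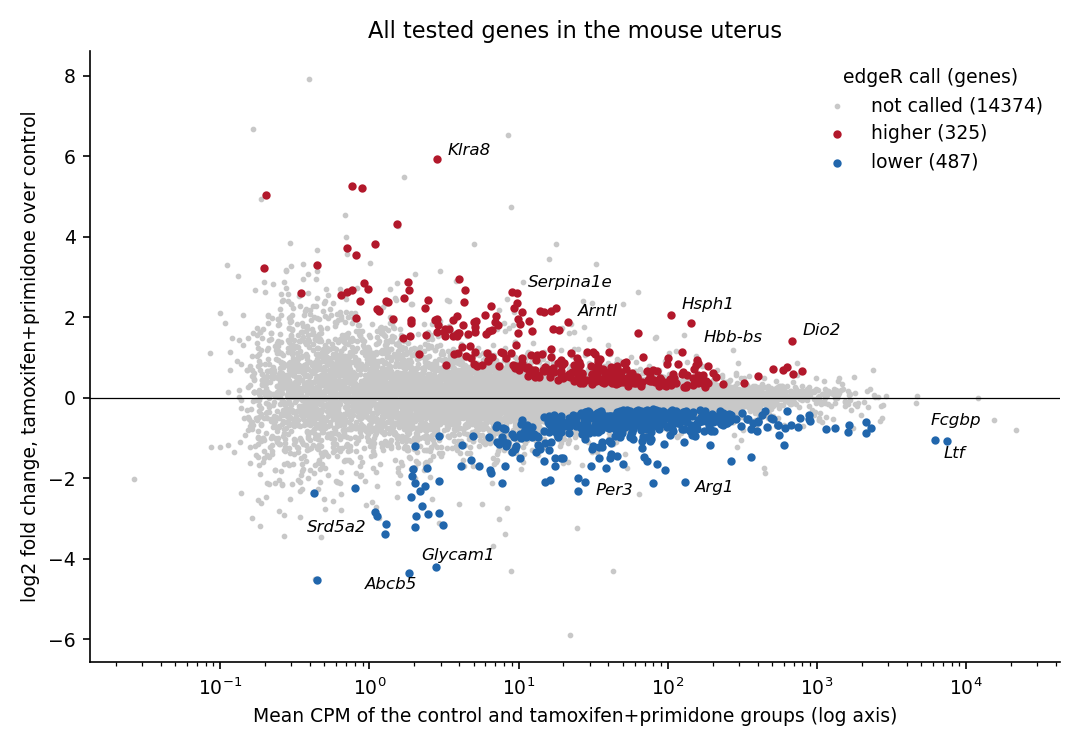
Each point is a tested gene, with its mean CPM over the control and tamoxifen+primidone groups on a log axis and its fitted log2 fold change on the vertical axis. The 325 genes called higher (red) and 487 called lower (blue) span most of the range of levels. Ltf and Fcgbp are the called genes furthest to the right, with uncalled genes beyond them.

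The gene with the smallest p among those that rose was Arntl, the activator at the core of the circadian clock, at 8.57, 8.41 and 10.6 CPM in control and 31.1, 37.3 and 32.4 CPM in tamoxifen+primidone libraries (log2 fold change 1.87 ± 0.13, edgeR adjusted p = 0.00042). Numbers with ± in parentheses below are likewise log2 fold changes against control with their standard errors. Grb10, an adaptor that restrains insulin and IGF1 receptor signalling, stood at 69, 76.8 and 65.5 CPM in control and 124, 129.6 and 125 CPM in tamoxifen+primidone libraries (0.84 ± 0.08, edgeR adjusted p = 0.00135). Dio2, the deiodinase that turns thyroxine into the active thyroid hormone, stood at 361, 436 and 318 CPM in control and 1010, 999 and 949 CPM in tamoxifen+primidone libraries (1.41 ± 0.17, edgeR adjusted p = 0.00429). In each of these 3 genes the lowest tamoxifen+primidone library lay well above the highest control library. Spon2, a secreted matrix protein (0.87 ± 0.10), and Dapk1, a death-associated protein kinase (1.01 ± 0.12), rose too. So did Sipa1l2, of a family that acts on Rap GTPases (0.62 ± 0.07), Tenm4, a teneurin (0.64 ± 0.08), and Abat, the transaminase that breaks down GABA (1.08 ± 0.13). Lack of overlap between the groups was a condition of the choice of the 12 genes of smallest p. The other 4 of the 12 genes with the smallest p were Serpina1e, Apoa1, Alb and Ahsg, which encode plasma proteins made mainly by liver. Arntl, Grb10, Dio2, Spon2, Dapk1, Sipa1l2, Tenm4 and Abat passed whichever library was left out.

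Among the genes that fell, Arl14, a small GTPase of the ARF-like family, had the smallest p, at 27.6, 29 and 28.8 CPM in control and 9.57, 10.9 and 9.84 CPM in tamoxifen+primidone libraries (−1.49 ± 0.11, edgeR adjusted p = 0.00042). Cndp1, a dipeptidase of the carnosinase family, stood at 54.1, 53.6 and 69.5 CPM in control and 20, 15 and 17.5 CPM in tamoxifen+primidone libraries (−1.75 ± 0.14, edgeR adjusted p = 0.000553). Rasd1, a Ras-like protein induced by dexamethasone, stood at 54.2, 48.3 and 49.6 CPM in control and 17.4, 16.1 and 20.8 CPM in tamoxifen+primidone libraries (−1.49 ± 0.12, edgeR adjusted p = 0.000636). Every tamoxifen+primidone library was below every control library for these 3 genes, a condition of the choice. Hgfac, the protease that activates hepatocyte growth factor, stood at 99.6, 88.6 and 119 CPM in control and 35.9, 36.1 and 38.3 CPM in tamoxifen+primidone libraries and at 118, 86.1 and 125 CPM in the tamoxifen libraries. It fell against control (−1.48 ± 0.15, edgeR adjusted p = 0.0018) and against tamoxifen (−1.57 ± 0.15, edgeR adjusted p = 0.0123), the latter call being lost without control 1 or tamoxifen 1 at nearly the same fold change. The remaining genes of the 12 were Fndc10 (−0.98 ± 0.08), Per3 and Bhlhe41 of the clock, Slc37a1, a sugar phosphate exchanger (−0.84 ± 0.08), Auts2, a regulator of transcription (−0.86 ± 0.08), Papln, papilin of the extracellular matrix (−1.69 ± 0.17), Foxc1, a forkhead transcription factor (−1.03 ± 0.10), and Cpt1a, which imports fatty acids into mitochondria (−0.83 ± 0.09). Arl14, Cndp1, Rasd1, Hgfac, Fndc10, Slc37a1, Auts2, Papln, Foxc1 and Cpt1a kept their calls in all 9 fits that each left out 1 library.

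Set beside the mice given tamoxifen alone, these genes fell into different orders of level. Arntl, at 35.4, 42.7 and 35.9 CPM, and Arl14, at 10.1, 9.19 and 9.25 CPM, were in tamoxifen libraries at levels that overlapped those of tamoxifen+primidone. Papln, at 38.1, 25.3 and 36.3 CPM, and Rasd1, at 37.2, 30.9 and 31 CPM, lay in tamoxifen libraries between the other two groups (tamoxifen+primidone minus tamoxifen −1.20 ± 0.17 and −0.87 ± 0.12, edgeR adjusted p = 0.0518 and 0.0518), so neither difference passed. Cndp1 lay between them as well, at 27, 30.1 and 30.1 CPM (edgeR adjusted p = 0.0804). Both comparisons share the tamoxifen+primidone libraries, and a gene that passed in 1 of them and not in the other is not shown to differ between them.

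**Figure D2:**
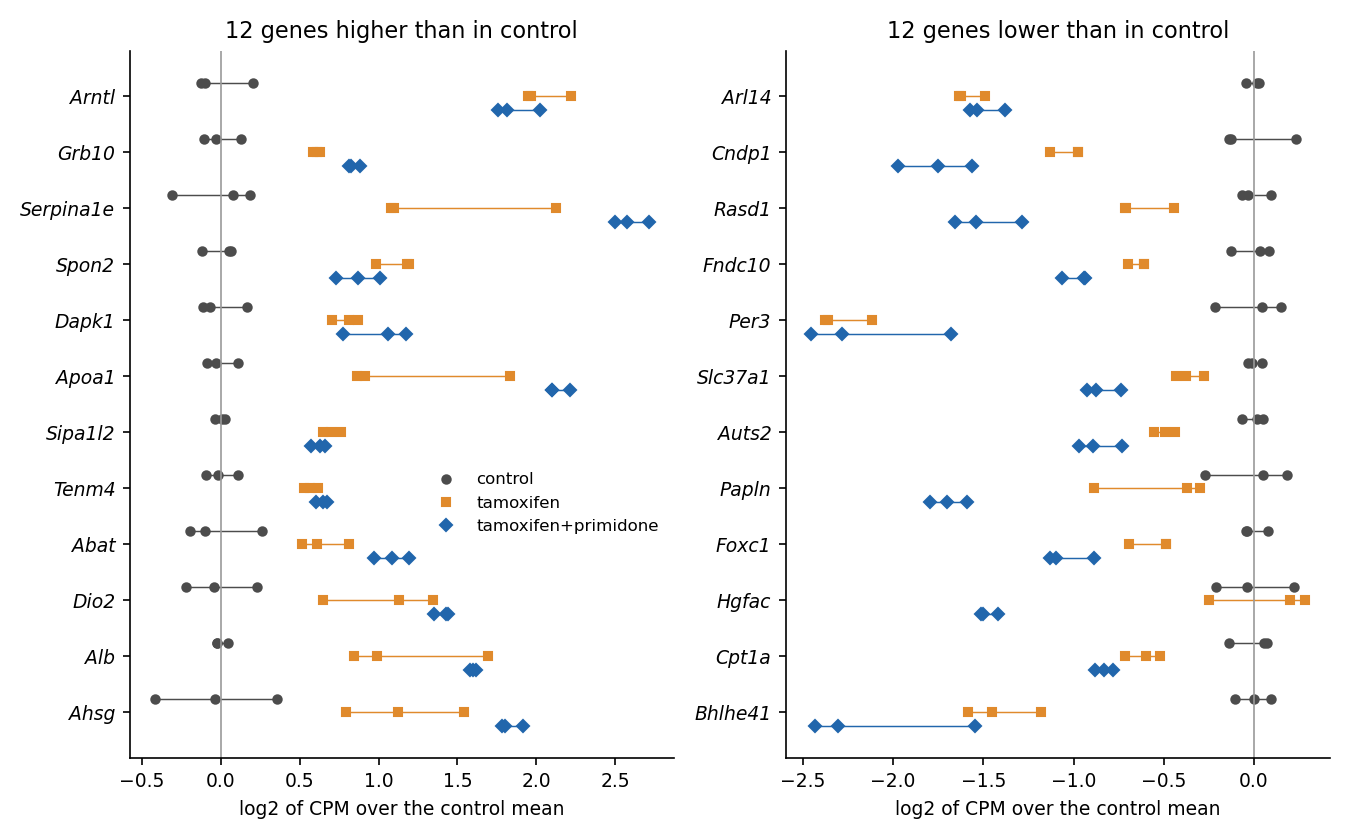
Points are single libraries, plotted as log2 of their CPM over the control mean, for the 12 genes of smallest p in each direction and 10 CPM or more in the group where they were higher; lines join the 3 libraries of a group. Tamoxifen+primidone and control libraries lie apart for each gene, a condition of the choice, and tamoxifen libraries overlap control for Hgfac.

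The genes with the highest levels among those called were mostly lower. Fcgbp, a mucus protein, stood at 11050, 9472 and 9986 CPM in control and 3503, 5629 and 5261 CPM in tamoxifen+primidone libraries (−1.08 ± 0.21, edgeR adjusted p = 0.0218). Ltf, lactotransferrin, an estrogen-induced secretory protein of the uterine epithelium, stood at 8273, 8554 and 8177 CPM in control and 3730, 3492 and 4936 CPM in tamoxifen+primidone libraries (−1.04 ± 0.18, edgeR adjusted p = 0.0136), and at 11160, 9338 and 7308 CPM with tamoxifen alone. Neither gene's groups overlapped between control and tamoxifen+primidone. Padi1, a peptidylarginine deiminase (−0.88 ± 0.19), Cbr2, a carbonyl reductase (−0.75 ± 0.18), and Cd24a, a surface glycoprotein of epithelium (−0.61 ± 0.15), fell too. The 20 most abundant genes held 11.6% to 12.3% of all counts in control libraries and 8.69% to 10% in tamoxifen+primidone libraries. Of the called genes with high levels that rose, Dio2 was joined by Igfbp4, an IGF binding protein (0.76 ± 0.12), Scd2, a fatty acid desaturase (0.58 ± 0.11), Serpinh1, the collagen chaperone HSP47 (0.69 ± 0.17), and LOC118568312, which the table gives no further name (0.67 ± 0.14). In all 9 fits lacking a single library, Igfbp4 passed. Fcgbp (0.0792), Ltf (0.053), Padi1 (0.1), Cbr2 (0.125), Cd24a (0.133), Scd2 (0.0859), Serpinh1 (0.145) and LOC118568312 (0.0802) lost their calls in some fits, with edgeR adjusted p up to the value given. Leaving out any of the 9 libraries cost at least 1 of these calls.

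Circadian clock genes had the highest share of calls of the 54 lists described: 3 rose and 11 fell of 25 tested, or 56%, against 5.35% of all genes, and the list's median log2 fold change was −0.67 against 0.01. Sequences that the clock reads at promoters are shown for 3 of the genes that fell. They run from 250 bases before to 50 after the start site (RefSeq, GRCm38.p6, all on the minus strand, written 5′ to 3′). Capitals mark the E-box CACGTG, the site of ARNTL and CLOCK, in Ciart (chr3:95882179-95882478) and Bhlhe41 (chr6:145865371-145865670), and the D-box (TTATGTAA or TTACGTAA), the site of the activators DBP, TEF and HLF and of the repressor NFIL3, in Per3 (chr4:151044616-151044915).
Ciart: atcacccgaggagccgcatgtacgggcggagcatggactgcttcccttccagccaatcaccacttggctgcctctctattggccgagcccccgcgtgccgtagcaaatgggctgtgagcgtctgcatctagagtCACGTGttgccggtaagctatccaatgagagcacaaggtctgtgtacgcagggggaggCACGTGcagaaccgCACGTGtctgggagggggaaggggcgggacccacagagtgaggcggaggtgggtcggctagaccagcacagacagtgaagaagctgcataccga
Bhlhe41: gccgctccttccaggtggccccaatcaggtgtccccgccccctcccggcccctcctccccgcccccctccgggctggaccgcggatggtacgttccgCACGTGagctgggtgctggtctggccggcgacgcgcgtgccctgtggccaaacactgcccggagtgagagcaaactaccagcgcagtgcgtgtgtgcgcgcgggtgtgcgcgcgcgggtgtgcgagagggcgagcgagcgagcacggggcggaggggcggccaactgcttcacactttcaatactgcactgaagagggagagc
Per3: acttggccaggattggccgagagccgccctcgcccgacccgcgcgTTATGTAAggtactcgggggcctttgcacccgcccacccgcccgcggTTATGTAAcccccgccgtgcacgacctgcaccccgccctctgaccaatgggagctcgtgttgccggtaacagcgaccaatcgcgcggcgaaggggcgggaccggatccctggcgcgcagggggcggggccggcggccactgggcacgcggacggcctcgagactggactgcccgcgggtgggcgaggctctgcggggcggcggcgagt

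Searched on both strands, these 300 bases of Ciart hold 3 E-boxes, those of Bhlhe41 hold 1 and those of Per3 hold 2 D-box matches, a site that reads the same on both strands being counted once. Of the 14 clock genes called, 11 had a promoter in the table and 3 of these held an E-box (27.3%). Over all tested genes with a promoter the share was 10.9% (1304 of 12010), and it was 15.7% for genes that fell (58 of 369) and 9.64% for genes that rose (24 of 249). A D-box was matched in 0.966% of all tested genes with a promoter, 1.9% of those that fell and 0.803% of those that rose. Over the 32851 promoters of that length in the table, several of which can belong to 1 gene, the shares were 7.15% and 1.06%. The palindrome of the estrogen response element, GGTCANNNTGACC, was found in 2 of the 12010 genes and in 0 of the called ones. A match is a run of letters, not a measured site.

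Of the activators, Arntl and Clock rose. Clock stood at 52.9, 51.8 and 56.1 CPM in control and 69.1, 74.1 and 72.2 CPM in tamoxifen+primidone libraries (0.42 ± 0.08, edgeR adjusted p = 0.0188). Npas2, which can stand in for Clock, did not pass, at 9.17, 7.58 and 14.6 CPM in control and 13.1, 17.2 and 12.8 CPM in tamoxifen+primidone libraries (edgeR adjusted p = 0.31). Nfil3, the repressor at D-boxes, rose as well (1.05 ± 0.26, edgeR adjusted p = 0.0479).

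Several repressors of the activators fell. Per3 stood at 46.7, 50.2 and 39.1 CPM in control and 14.1, 9.3 and 8.25 CPM in tamoxifen+primidone libraries (−2.10 ± 0.20, edgeR adjusted p = 0.0015). Per2, its relative, stood at 65.7, 57.5 and 58.4 CPM in control and 20.2, 18.2 and 25.6 CPM in tamoxifen+primidone libraries (−1.50 ± 0.21, edgeR adjusted p = 0.00906). Bhlhe41, a repressor that binds E-boxes, stood at 26.1, 27.8 and 24.3 CPM in control and 8.92, 5.27 and 4.83 CPM in tamoxifen+primidone libraries (−2.04 ± 0.22, edgeR adjusted p = 0.00334). None of these overlapped between the groups, and tamoxifen+primidone 1 was the library nearest to control for Per3 and Bhlhe41. Bhlhe40, the paralog of Bhlhe41, fell by less (−0.67 ± 0.10). It stood at 284, 270.5 and 288 CPM in control, 171, 188 and 172 CPM in tamoxifen+primidone and 256, 301 and 238 CPM in tamoxifen libraries, and its difference from tamoxifen did not pass (−0.58 ± 0.10, edgeR adjusted p = 0.0681). Per1, at 39.5, 36.4 and 33.2 CPM in control and 22.1, 17.8 and 30.2 CPM in tamoxifen+primidone libraries, and Cry1, at 23.1, 19.6 and 23.6 and 18.7, 28.8 and 35.6 CPM, did not pass.

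Output genes of the clock were among those that fell. Tef, a D-box activator, stood at 134, 136 and 116 CPM in control and 57.1, 32.8 and 34.3 CPM in tamoxifen+primidone libraries (−1.64 ± 0.20, edgeR adjusted p = 0.00501). Other called members were Dbp (−2.12 ± 0.32) and Hlf (−1.57 ± 0.32), the relatives of Tef, Cry2 (−0.76 ± 0.17), Nr1d2, a nuclear receptor that represses Arntl (−1.56 ± 0.32), and Ciart, a repressor (−2.69 ± 0.47); these were named after their values were seen. Tamoxifen+primidone 1 was nearest to control for each of Dbp, Hlf, Cry2, Nr1d2 and Ciart, and for Nr1d1, which did not pass: it stood at 108, 106 and 69.8 CPM in control and 84.2, 43.7 and 25.2 CPM in tamoxifen+primidone libraries. The tamoxifen libraries, at 33.1, 40.9 and 36.3 CPM for Tef and 16.5, 21.4 and 14.3 CPM for Dbp, were below control as well, and no clock gene passed between tamoxifen+primidone and tamoxifen. Leaving out 1 library gave 7 to 15 called clock genes, fewest without control 1. Per3, Per2, Bhlhe41, Bhlhe40 and Tef passed whichever library was left out. The calls of Clock (0.0761) and Nfil3 (0.132) were lost in some of these fits, the number after each gene being the highest edgeR adjusted p. They were lost without control 1, 2 and 3, tamoxifen+primidone 1, 2 and 3 and tamoxifen 1.

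**Figure D3:**
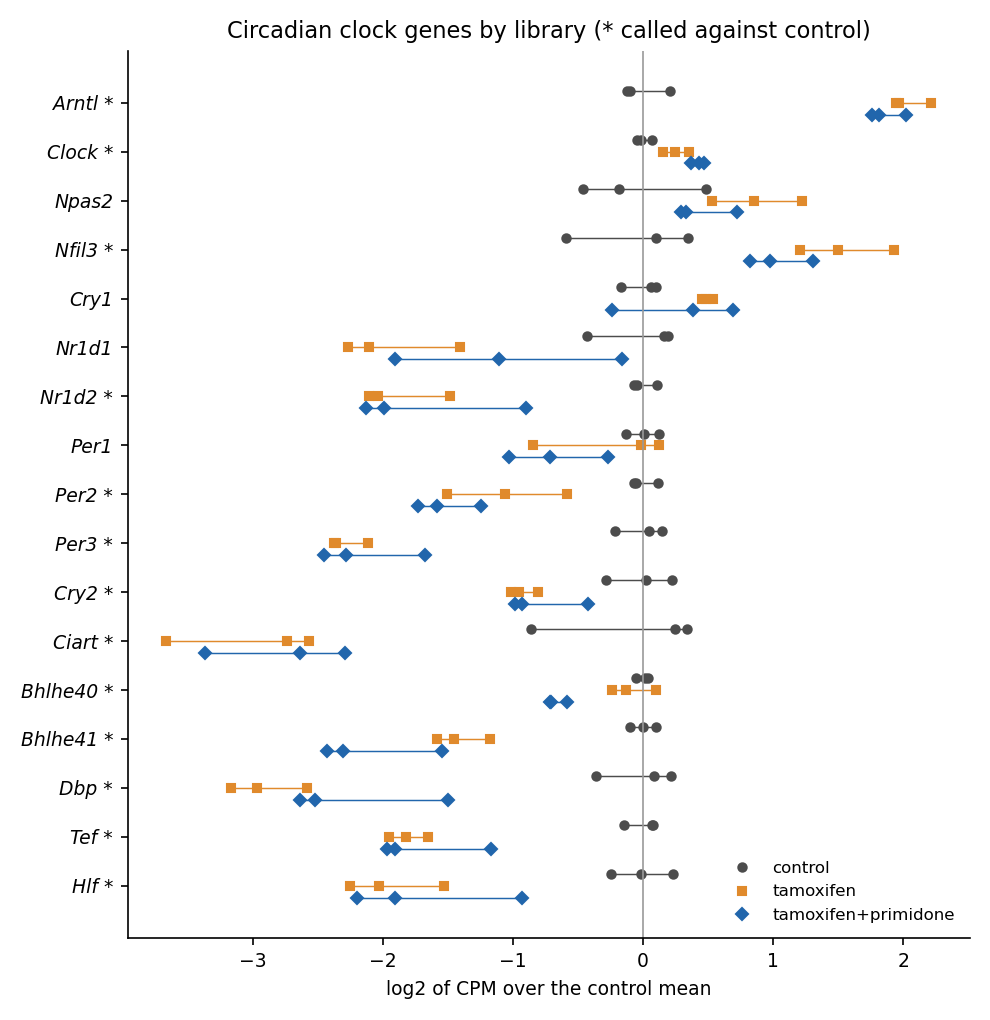
Each row is a circadian clock gene and each point a library, as log2 of its CPM over the control mean; an asterisk marks genes called between tamoxifen+primidone and control. Arntl, Clock and Nfil3 lie to the right of control and the plotted genes called lower to the left, and tamoxifen libraries lie on the same side of the control mean as tamoxifen+primidone for most genes and overlap control for Bhlhe40 and Per1.

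Genes of proteins that liver secretes into plasma were higher throughout: the log2 fold change was above 0 for all 67 tested members. Of these 34 rose (50.7%) and 0 fell, and the median was 1.82. Alb, albumin, stood at 32.3, 30.8 and 30.7 CPM in control and 94.6, 95.8 and 93.5 CPM in tamoxifen+primidone libraries (1.60 ± 0.19, edgeR adjusted p = 0.00429). Apoa1, the main protein of high-density lipoprotein, stood at 4.23, 3.69 and 3.83 CPM in control and 16.8, 18.2 and 16.8 CPM in tamoxifen+primidone libraries (2.14 ± 0.25, edgeR adjusted p = 0.00397). Fgb, a fibrinogen chain, stood at 6.77, 5.35 and 4.37 CPM in control and 25.1, 21.6 and 25 CPM in tamoxifen+primidone libraries (2.12 ± 0.34, edgeR adjusted p = 0.0134). No library overlapped for these 3 genes, though their levels were low. The summed level of the list was 251 to 315 CPM in control libraries, 716 to 863 CPM in tamoxifen+primidone libraries and 358 to 715 CPM in tamoxifen libraries. Of the defining liver genes, Alb was present in every library, while Afp, the fetal albumin, and Serpina6 had too few counts to be tested. Ahsg, fetuin-A (1.83 ± 0.23), Mug1, a protease inhibitor (1.90 ± 0.24), Serpina1e (2.60 ± 0.29), Serpina3k (2.15 ± 0.38) and Ttr, the thyroxine carrier (1.91 ± 0.33), rose too. Trf, transferrin, which the uterus is known to make, had the highest level of the list and rose by 0.98 ± 0.21, and Hp, haptoglobin, did not pass (1.62 ± 0.46, edgeR adjusted p = 0.0808).

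In libraries of tissue, more cells of a type and more RNA per cell cannot be told apart, and the source of the liver transcripts was not tested. In tamoxifen libraries Alb stood at 62.1, 56.1 and 101 CPM and Fgb at 7.16, 6.37 and 16.4 CPM, with tamoxifen 3 nearest to tamoxifen+primidone. With 1 library left out, 6 to 41 of the 67 genes were called, 6 without control 1, 11 without control 2 and 11 without control 3, and 0 were called lower in any of these fits. Alb, Apoa1, Ahsg, Mug1 and Serpina1e kept their calls in all 9 fits that each left out 1 library. Not all fits kept Serpina3k (0.0773) and Ttr (0.0637), given with the highest edgeR adjusted p. The fits were those without control 1, 2 and 3. The many Serpina1, Mup and hemoglobin genes are near-identical copies, between which reads may be split, so the values of each are uncertain.

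Natural killer (NK) cell receptor and cytotoxic genes also tended upward: of 41 tested, 12 rose and 2 fell, 34.1% in all, and the median was 0.90. Il2rb, the receptor chain for interleukins 2 and 15, stood at 11.1, 10.9 and 8.12 CPM in control and 25.3, 23.2 and 21.2 CPM in tamoxifen+primidone libraries (1.21 ± 0.17, edgeR adjusted p = 0.00789). Nkg7, a protein of cytotoxic granules, stood at 1.57, 2.49 and 1.83 CPM in control and 6.33, 5.85 and 5.66 CPM in tamoxifen+primidone libraries (1.60 ± 0.26, edgeR adjusted p = 0.0108). Cd7, a surface protein of NK and T cells, stood at 2.51, 3.4 and 1.51 CPM in control and 7.76, 7.09 and 8.2 CPM in tamoxifen+primidone libraries (1.63 ± 0.27, edgeR adjusted p = 0.0124). The libraries of the groups did not overlap for any of the 3. Klra8 and Klra1, receptors of the Ly49 family, were nearly absent from control libraries, at 0.0523, 0.107 and 0.108 and 0.0261, 0.0803 and 0.027 CPM, and reached 6.02, 7.85 and 2.87 and 2.48, 1.98 and 0.805 CPM in tamoxifen+primidone libraries (edgeR adjusted p = 0.0137 and 0.0156). Their levels in tamoxifen libraries, 6.06, 3.5 and 0.511 and 1.51, 1.35 and 0.204 CPM, spread as widely.

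Among the genes that define NK cells, Ncr1, the NK receptor NKp46, stood at 2.85, 2.62 and 2.13 CPM in control and 5.3, 4.15 and 5.76 CPM in tamoxifen+primidone libraries (edgeR adjusted p = 0.0629). Gzma, a granzyme, stood at 2.82, 3.13 and 3.53 CPM in control and 5.3, 5.19 and 2.69 CPM in tamoxifen+primidone libraries (edgeR adjusted p = 0.454). Neither passed. The summed level of the list, 174 to 194 CPM in control and 187 to 219 CPM in tamoxifen+primidone libraries, overlapped. Its most abundant members, the integrins Itga2 and Itga1, are also made by other cells, and Itga1 fell (−0.68 ± 0.11). Styk1, a kinase-like receptor, fell too (−1.21 ± 0.24). Fits without 1 library called 1 to 16 members, fewest without control 1. In all 9 fits lacking a single library, Il2rb passed. Nkg7 (0.0525), Cd7 (0.0566), Klra8 (0.0679), Klra1 (0.0696), Itga1 (0.0525) and Styk1 (0.0871) lost their calls in some fits, with edgeR adjusted p up to the value given. Libraries whose absence did so were control 1, 2 and 3 and tamoxifen+primidone 1 and 2.

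Of the mesothelium list, 5 of 15 rose and 0 fell (33.3%; median 0.89). Msln, mesothelin, stood at 5.7, 3.75 and 5.15 CPM in control and 17.3, 14.2 and 13.2 CPM in tamoxifen+primidone libraries (1.61 ± 0.35, edgeR adjusted p = 0.0357). The others were Lrrn4 (1.67 ± 0.36), Nkain4 (1.53 ± 0.35), Rspo1 (0.56 ± 0.13) and Wt1, the Wilms tumour transcription factor, which stroma also makes (0.40 ± 0.09). Its summed level was 1290 to 1447 CPM in control and 1205 to 1519 CPM in tamoxifen+primidone libraries, which overlapped, and most of it came from Krt19, which epithelium also makes. From 0 to 9 members were called with 1 library left out, 0 without control 2, control 3 or tamoxifen+primidone 1. The calls of Msln (0.108), Lrrn4 (0.108), Nkain4 (0.124), Rspo1 (0.108) and Wt1 (0.107) were lost in some of these fits, the number after each gene being the highest edgeR adjusted p. They were lost without control 1, 2 and 3, tamoxifen+primidone 1, 2 and 3 and tamoxifen 1 and 3.

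Markers of other tissue differed between single libraries. Adipocyte genes reached a mean log2 level of 1.49 in tamoxifen+primidone 2 and 0.16 and −0.10 in replicates 1 and 3, against −0.76, −0.39 and −0.40 in control libraries. In tamoxifen libraries the level was 0.32, −0.41 and 1.41. Adipoq, adiponectin, stood at 1.83, 3.1 and 2.83 CPM in control and 8.48, 27.7 and 6.04 CPM in tamoxifen+primidone libraries (edgeR adjusted p = 0.143). The 1 called member, Pnpla2, a lipase found in many tissues, fell (−0.42 ± 0.10). Among tamoxifen+primidone libraries neutrophil genes were also highest in replicate 2, at 1.34, against −0.32 and 0.03 in replicates 1 and 3. Their level was −0.51, −0.56 and 0.03 in control and 0.94, 1.5 and 0.37 in tamoxifen libraries. Of 16 tested neutrophil genes 1 was called (6.25%), Ltf, which fell. Erythroid genes were uneven within both groups, with 67.3, 74.6 and 43.3 CPM of Hbb-bs, beta globin, in control and 340.3, 219 and 112 CPM in tamoxifen+primidone libraries (1.86 ± 0.41, edgeR adjusted p = 0.0427). Hba-a1, alpha globin, overlapped at 139, 31.2 and 17.7 and 128, 112 and 55.8 CPM. The part of blood or fat in the other results was not tested. Not all fits kept Pnpla2 (0.125) and Hbb-bs (0.133), given with the highest edgeR adjusted p. The fits were those without control 1, 2 and 3, tamoxifen+primidone 1, 2 and 3 and tamoxifen 1 and 3.

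**Figure D4:**
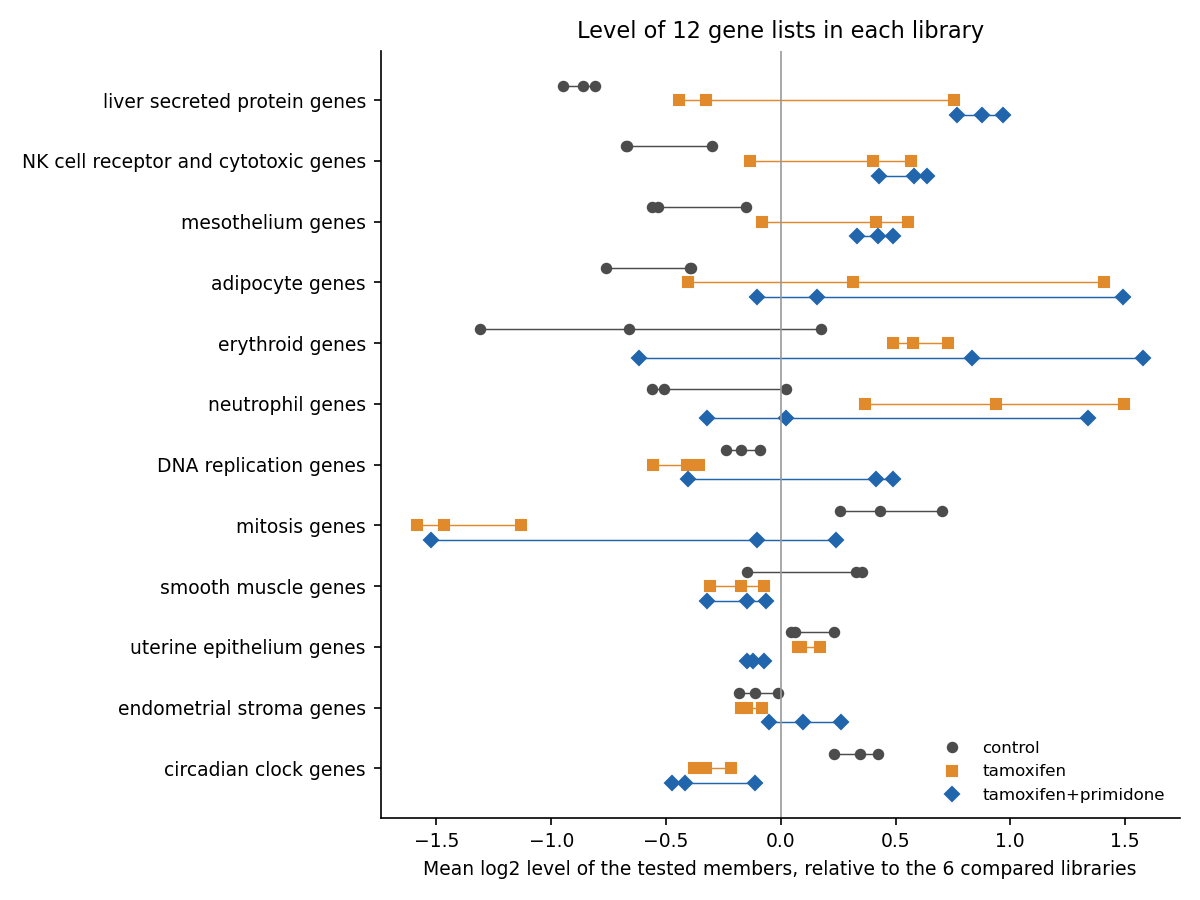
Points are libraries, placed at the mean log2 level of each list's tested members relative to the mean of the 6 compared libraries. Liver, NK and mesothelium lists separate tamoxifen+primidone from control libraries. The adipocyte list is high in tamoxifen+primidone 2 and tamoxifen 3, and the neutrophil list in tamoxifen+primidone 2 and tamoxifen 1 and 2. The mitosis list is low in tamoxifen+primidone 1, at −1.52, and in the tamoxifen libraries.

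The targets of both drugs were examined next. Esr1, the estrogen receptor, stood at 349, 365 and 348 CPM in control and 352, 302 and 341 CPM in tamoxifen+primidone libraries (edgeR adjusted p = 0.549). Pgr, the progesterone receptor and a target of estrogen, stood at 301, 293 and 302 CPM in control and 307, 225 and 244 CPM in tamoxifen+primidone libraries (edgeR adjusted p = 0.323). Neither passed, and 0 of 18 steroid receptors did; the smallest p among them was that of Esrra, at −0.31 ± 0.11 (edgeR adjusted p = 0.113). Trpm3, the channel that primidone blocks, was barely present, at 0.627, 0.696 and 0.863 CPM in control and 0.44, 0.785 and 0.226 CPM in tamoxifen+primidone libraries, and did not pass (edgeR adjusted p = 0.639). Of 20 tested channels of the TRP family 1 was called, Trpv6, the epithelial calcium channel, which fell from 237, 226 and 320.4 CPM in control to 136, 176 and 126 CPM in tamoxifen+primidone libraries (−0.84 ± 0.19, edgeR adjusted p = 0.0409). Trpv6 (0.116) lost its call without control 1, 2 and 3, tamoxifen+primidone 1 and 3 and tamoxifen 1, the number being the highest edgeR adjusted p.

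Of 34 tested estrogen-responsive uterine genes, 5 fell and 0 rose (14.7%; median −0.12). Beside Ltf and Padi1 they included Muc1, the epithelial mucin, at 679.7, 652 and 698 CPM in control and 329, 508 and 428 CPM in tamoxifen+primidone libraries (−0.68 ± 0.14, edgeR adjusted p = 0.0255). The remaining 2 were Greb1, a cofactor of the estrogen receptor (−1.07 ± 0.25), and Padi2 (−0.79 ± 0.20). C3, complement component 3, the most abundant member, did not pass, at 18620, 20720 and 16000 CPM in control and 9903, 13550 and 13930 CPM in tamoxifen+primidone libraries (edgeR adjusted p = 0.0793), although its groups did not overlap. Lcn2, lipocalin 2, overlapped, at 3052, 2682 and 3794 and 1068, 2523 and 2737 CPM. With 1 library left out, 0 to 6 members were called, 0 of them without control 1. Ltf (0.053), Padi1 (0.1), Muc1 (0.0871), Greb1 (0.138) and Padi2 (0.147) lost their calls in some fits, with edgeR adjusted p up to the value given. Libraries whose absence did so were control 1, 2 and 3, tamoxifen+primidone 1, 2 and 3 and tamoxifen 1 and 2. Of 25 tested progesterone-responsive genes 1 rose, Hand2, the stromal transcription factor that restrains epithelial growth, at 26.9, 30.9 and 26.4 CPM in control and 50.5, 43 and 43.7 CPM in tamoxifen+primidone libraries (0.70 ± 0.10, edgeR adjusted p = 0.00777). Hand2 passed whichever library was left out.

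Steroid metabolism genes fell in 3 of 29 cases and rose in 0 (10.3%, against 5.35% of all genes; median −0.29). Srd5a2, a steroid 5-alpha reductase, stood at 2.33, 2.84 and 1.83 CPM in control and 0.207, 0.279 and 0.302 CPM in tamoxifen+primidone libraries (−3.13 ± 0.46, edgeR adjusted p = 0.00842). Hsd17b11 (−0.44 ± 0.07) and Cyp21a1 (−1.66 ± 0.39) are both steroid-converting enzymes. Barbiturates induce drug-metabolizing genes in liver. Of 29 such genes tested in the uterus 0 rose and 4 fell (13.8%), but 18 of the 29 had positive log2 fold changes and the median was 0.05. Por, the electron donor of all microsomal cytochrome P450 enzymes, stood at 304, 337 and 304 CPM in control and 223, 202 and 206 CPM in tamoxifen+primidone libraries (−0.58 ± 0.09, edgeR adjusted p = 0.00864), with no overlap. Ces2b, a carboxylesterase (−0.91 ± 0.14), Ephx1, an epoxide hydrolase (−0.59 ± 0.14), and Aldh1a1, a retinal dehydrogenase (−1.20 ± 0.29), were also lower. Of 26 prostaglandin genes Ptger4, a receptor of prostaglandin E2 (−0.65 ± 0.11), and Cbr2 fell (7.69%), while 14 had positive log2 fold changes and the median was 0.03. Srd5a2, Por and Ces2b kept their calls in all 9 fits that each left out 1 library. Not all fits kept Hsd17b11 (0.0514), Cyp21a1 (0.142), Ephx1 (0.132), Aldh1a1 (0.144) and Ptger4 (0.0517), given with the highest edgeR adjusted p. Leaving out any of the 9 libraries cost at least 1 of these calls.

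Epithelial genes shifted downward by small amounts: 5 of 38 fell, 0 rose (13.2%), 31 had negative log2 fold changes, and the median was −0.26. Elf3, an epithelial transcription factor, stood at 1073, 1121 and 1050 CPM in control and 732, 733 and 691 CPM in tamoxifen+primidone libraries (−0.59 ± 0.09, edgeR adjusted p = 0.00923). Spint1, an inhibitor of membrane proteases, stood at 100.1, 105 and 104 CPM in control and 70.5, 67.3 and 75.5 CPM in tamoxifen+primidone libraries (−0.53 ± 0.08, edgeR adjusted p = 0.0103). Neither overlapped. Esrp1, an epithelial splicing factor (−0.34 ± 0.07), Marveld3 (−0.39 ± 0.09) and Cldn4 (−0.31 ± 0.08), of tight junctions, were the others. Krt8, a keratin of simple epithelium, stood at 969.6, 1030 and 1059 CPM in control and 718, 914 and 858 CPM in tamoxifen+primidone libraries and did not pass (edgeR adjusted p = 0.123). Of 16 tested gland genes (25% called) 3 fell, Sox9, a transcription factor of gland progenitors (−0.74 ± 0.15), Fxyd4 (−0.56 ± 0.14) and Aldh1a1, and 1 rose, Ttr, which also stands in the liver list. Foxa2, the defining transcription factor of glands, did not pass (0.68 ± 0.21, edgeR adjusted p = 0.0902). In all 9 fits lacking a single library, Elf3 and Spint1 passed. Esrp1 (0.0827), Marveld3 (0.109), Cldn4 (0.134), Sox9 (0.0707) and Fxyd4 (0.132) lost their calls in some fits, with edgeR adjusted p up to the value given. Libraries whose absence did so were control 1, 2 and 3, tamoxifen+primidone 1, 2 and 3 and tamoxifen 1 and 2.

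In the smooth muscle list 31 of 33 genes had negative log2 fold changes (median −0.31), and 3 fell (9.09%). Actg2, the actin of visceral smooth muscle, stood at 887, 562 and 1073 CPM in control and 383, 326 and 407 CPM in tamoxifen+primidone libraries (−1.18 ± 0.22, edgeR adjusted p = 0.0209). Myh11, the smooth muscle myosin heavy chain, stood at 2225, 1593 and 2216 CPM in control and 1425, 1167 and 1149 CPM in tamoxifen+primidone libraries (−0.69 ± 0.16, edgeR adjusted p = 0.0357). Hspb6, a small heat shock protein, stood at 16, 12.2 and 18.1 CPM in control and 9.8, 9.47 and 8.78 CPM in tamoxifen+primidone libraries (−0.72 ± 0.17, edgeR adjusted p = 0.0398). Control 2 was the lowest control library for all 3, and Acta2, at 3474, 2409 and 3651 CPM in control and 2394, 1965 and 2403 CPM in tamoxifen+primidone libraries, did not pass (edgeR adjusted p = 0.114). The mean log2 level of the list was −0.15 in control 2 against 0.33 and 0.35 in controls 1 and 3, and −0.06, −0.32 and −0.14 in tamoxifen+primidone libraries. Without control 2, 10 members were called lower and the median was −0.42. Without control 1, control 3 or tamoxifen+primidone 2, 0 were called, with medians of −0.27, −0.25 and −0.28, and the part of the amount of muscle in each sample was not tested. The calls of Actg2 (0.0707), Myh11 (0.13) and Hspb6 (0.134) were lost in some of these fits, the number after each gene being the highest edgeR adjusted p. They were lost without control 1 and 3, tamoxifen+primidone 1, 2 and 3 and tamoxifen 3. Of 40 uterotonic receptor and excitability genes 1 rose (2.5%), Ano1, a calcium-activated chloride channel (0.89 ± 0.19). Oxtr, the oxytocin receptor, overlapped, at 180.4, 73.8 and 205 CPM in control, again lowest in control 2, and 67.7, 78.3 and 86.4 CPM in tamoxifen+primidone libraries. Ano1 (0.12) lost its call without control 1 and 3 and tamoxifen+primidone 1 and 2, the number being the highest edgeR adjusted p.

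Stromal genes had a median of 0.29, with Hand2 and Wt1 called of 25 (8%). In the matrix, 5 of 50 collagen and collagen-processing genes rose and 0 fell (10%). P4ha1, a subunit of prolyl 4-hydroxylase, stood at 38.2, 34.8 and 36.3 CPM in control and 55.9, 64.1 and 77.5 CPM in tamoxifen+primidone libraries (0.85 ± 0.13, edgeR adjusted p = 0.00915). P4ha2, its relative, stood at 18.2, 16.6 and 18 CPM in control and 26.6, 31 and 40.9 CPM in tamoxifen+primidone libraries (0.90 ± 0.15, edgeR adjusted p = 0.0129). Neither overlapped. Serpinh1, Col8a2 (0.66 ± 0.15) and Col6a6 (0.74 ± 0.16) rose too. The fibrillar collagen genes did not pass, with Col1a1 at 3678, 2860 and 2361 and 2406, 2671 and 2758 CPM and Col3a1 at 3394, 2747 and 2451 and 2934, 3223 and 2722 CPM. Of 43 elastic fibre and matricellular genes 3 rose (6.98%, against 5.35% of all genes). Eln, elastin, stood at 94, 66 and 76.2 CPM in control and 118, 194 and 204 CPM in tamoxifen+primidone libraries (1.13 ± 0.22, edgeR adjusted p = 0.0258). The others were Fbn2, fibrillin 2 (0.93 ± 0.20), and Mfap5, a microfibril protein (0.57 ± 0.12). Of 45 matrix proteases and inhibitors 2 rose (4.44%, below the share over all genes), Adamts10 (0.54 ± 0.12) and Adamts5 (0.86 ± 0.21). P4ha1 kept its call in all 9 fits that each left out 1 library. Not all fits kept P4ha2 (0.0542), Col8a2 (0.112), Col6a6 (0.0929), Eln (0.0959), Fbn2 (0.102), Mfap5 (0.0704), Adamts10 (0.107) and Adamts5 (0.157), given with the highest edgeR adjusted p. Leaving out any of the 9 libraries cost at least 1 of these calls.

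Cell division genes split by library. All 44 mitosis genes had negative log2 fold changes (median −0.76), and 1 fell. This was Cdkn3, a phosphatase of the cell cycle, at 2.3, 3.32 and 3.53 CPM in control and 0.465, 1.39 and 0.83 CPM in tamoxifen+primidone libraries (−1.76 ± 0.43, edgeR adjusted p = 0.0439). The mean log2 level of the list was −1.52 in tamoxifen+primidone 1, 0.24 and −0.10 in replicates 2 and 3 and 0.26, 0.43 and 0.70 in control libraries. In tamoxifen libraries it was −1.13, −1.58 and −1.47, so replicate 1 lay within their range and replicates 2 and 3 above it. Without tamoxifen+primidone 1, 37 of the 44 genes had negative log2 fold changes and the median was −0.41. Mki67, the proliferation marker, stood at 58.7, 68.8 and 89.5 CPM in control and 25.3, 71.1 and 60.9 CPM in tamoxifen+primidone libraries, so that replicates 2 and 3 lay within the range of control and replicate 1 below it. Of 51 DNA replication genes 47 lay above 0 on the log2 fold change scale (median 0.41). The 1 member that rose, Pola1, the catalytic subunit of DNA polymerase alpha, stood at 10.2, 11.9 and 11.6 CPM in control and 16, 19.6 and 18.5 CPM in tamoxifen+primidone libraries (0.68 ± 0.14, edgeR adjusted p = 0.0253). Mcm2 and Mcm5, subunits of the replicative helicase, stood at 31.5, 61.3 and 81 and 21.2, 59.9 and 61.2 CPM in tamoxifen+primidone libraries, against 29.6, 29.3 and 37.5 and 25.9, 23.5 and 33.8 CPM in control. Without tamoxifen+primidone 1, 15 members of the replication list were called higher. Cdkn3 (0.133) and Pola1 (0.11) lost their calls in some fits, with edgeR adjusted p up to the value given. Libraries whose absence did so were control 1, 2 and 3, tamoxifen+primidone 1, 2 and 3 and tamoxifen 1 and 3.

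Among patterning and signalling genes, 4 of 65 Wnt and hedgehog genes rose and 3 fell (10.8%, against 5.35% of all genes). Nkd1, an inhibitor and target of Wnt signalling, stood at 50.5, 50 and 46.5 CPM in control and 67.8, 64.1 and 72.2 CPM in tamoxifen+primidone libraries (0.47 ± 0.10, edgeR adjusted p = 0.0247), with 40, 49.9 and 48 CPM in tamoxifen libraries. The Wnt ligand Wnt2b (1.93 ± 0.38), the Wnt enhancer Rspo1 (0.56 ± 0.13) and Smo, the transducer of hedgehog signals (0.31 ± 0.07), rose as well. The Wnt receptors Fzd6 (−0.71 ± 0.15) and Fzd5 (−0.51 ± 0.12) and the transcription factor Tcf7l2 (−0.51 ± 0.13) fell. Of 47 Muellerian and HOX genes (12.8% called) 2 rose, Wt1 and Lhx8, and 4 fell: Hoxb2 (−0.66 ± 0.10), Hoxb8 (−0.49 ± 0.10), Hoxb3 (−0.32 ± 0.08) and Pax2 (−0.39 ± 0.10), all transcription factors. Lhx8, a LIM homeobox gene, stood at 0.627, 1.31 and 0.782 CPM in control and 7.37, 10.6 and 3.17 CPM in tamoxifen+primidone libraries. The calls of Nkd1 (0.0931), Wnt2b (0.0892), Rspo1 (0.108), Smo (0.131), Fzd6 (0.0817), Fzd5 (0.147), Tcf7l2 (0.136), Hoxb2 (0.0517), Hoxb8 (0.0795), Hoxb3 (0.173), Pax2 (0.126), Wt1 (0.107) and Lhx8 (0.155) were lost in some of these fits, the number after each gene being the highest edgeR adjusted p. Leaving out any of the 9 libraries cost at least 1 of these calls.

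Of 37 retinoid genes 5 fell and 1 rose (16.2%). The genes that fell act on retinol and retinal. Dhrs3, a retinal reductase, stood at 247, 244 and 212 CPM in control and 143, 127 and 170.1 CPM in tamoxifen+primidone libraries (−0.68 ± 0.12, edgeR adjusted p = 0.0156). The others were Dhrs9 (−0.52 ± 0.12), Rdh1 (−2.12 ± 0.46), Adh1 (−0.83 ± 0.20) and Aldh1a1 (−1.20 ± 0.29). Crabp1, which binds retinoic acid, rose, at 6.12, 9.48 and 3.21 CPM in control and 29.8, 18.3 and 40.5 CPM in tamoxifen+primidone libraries (2.23 ± 0.42, edgeR adjusted p = 0.0243). Neither Dhrs3 nor Crabp1 overlapped between the groups. Of 57 TGF-beta and BMP genes (7.02% called, against 5.35% of all genes) the receptor Acvr1b (−0.63 ± 0.09), the ligand Bmp6 (−0.70 ± 0.14) and the repressor Skil (−0.38 ± 0.10) fell and the ligand Tgfb3 rose (0.65 ± 0.16). In the LIF, EGF and IGF axis (38 tested, 7.89% called), Grb10 and Igfbp4 rose and Igfbp2, another IGF binding protein, fell. It stood at 34.3, 28 and 57.8 CPM in control and 12.2, 6.56 and 11.3 CPM in tamoxifen+primidone libraries (edgeR adjusted p = 0.0375). Acvr1b kept its call in all 9 fits that each left out 1 library. Not all fits kept Dhrs3 (0.0661), Dhrs9 (0.11), Rdh1 (0.101), Adh1 (0.144), Aldh1a1 (0.144), Crabp1 (0.0999), Bmp6 (0.103), Skil (0.159), Tgfb3 (0.142) and Igfbp2 (0.0982), given with the highest edgeR adjusted p. Leaving out any of the 9 libraries cost at least 1 of these calls.

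Stress genes moved in both directions. Of 26 heat shock genes 3 rose and 2 fell (19.2% called, against 5.35% of all genes). Hsph1, the HSP105 chaperone, stood at 39.9, 34.6 and 47.8 CPM in control and 112, 109.7 and 287 CPM in tamoxifen+primidone libraries (2.06 ± 0.38, edgeR adjusted p = 0.0257). Stip1, an HSP70-HSP90 adaptor (0.82 ± 0.19), and Ahsa1, an activator of HSP90 (0.64 ± 0.13), were the others. Tamoxifen+primidone 3 was the highest library for all 3, and the mean log2 level of the list was −0.01, −0.02 and 0.46 in tamoxifen+primidone libraries. Without replicate 3, 3 members were called higher and the median was 0.21, against 0.31 with it. Without control 1, 2 or 3, 0 were called higher. The genes of 2 cold-induced RNA-binding proteins on that list fell. Cirbp stood at 83.6, 81 and 69.9 CPM in control and 45.7, 37.8 and 30.7 CPM in tamoxifen+primidone libraries (−1.04 ± 0.14, edgeR adjusted p = 0.00588). Rbm3 stood at 289, 282 and 292 CPM in control and 199, 182 and 161 CPM in tamoxifen+primidone libraries (−0.67 ± 0.10, edgeR adjusted p = 0.00918). Neither overlapped. Immediate early genes, which respond within minutes to many stimuli, numbered 3 higher, Atf3 (0.81 ± 0.15), Ier5 (0.69 ± 0.13) and Klf2 (0.58 ± 0.11), of 31 (22.6% called over both directions). The 4 lower were Rasd1, Junb (−0.79 ± 0.12), Ier2 (−0.47 ± 0.11) and Zfp36 (−0.43 ± 0.10). Fos, the best-known member, overlapped, at 116, 75.5 and 86.2 and 72.1, 86.8 and 63.6 CPM. Ddit3, the transcription factor CHOP, was the 1 called member of 48 unfolded protein response genes (2.08%) and rose (0.65 ± 0.12), and Ddit4, an inhibitor of mTOR signalling on the hypoxia list, fell (−0.76 ± 0.14). In all 9 fits lacking a single library, Cirbp and Rbm3 passed. Hsph1 (0.0991), Stip1 (0.132), Ahsa1 (0.0871), Atf3 (0.0726), Ier5 (0.0726), Klf2 (0.0713), Junb (0.0511), Ier2 (0.144), Zfp36 (0.132), Ddit3 (0.0737) and Ddit4 (0.0664) lost their calls in some fits, with edgeR adjusted p up to the value given. Libraries whose absence did so were control 1, 2 and 3, tamoxifen+primidone 1, 2 and 3 and tamoxifen 1 and 3. Without 1 library, 0 to 11 unfolded protein response genes were called.

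Few other immune genes were called. Of 21 T cell genes 0 passed, with Lck, a T cell kinase, at 6.82, 8.14 and 8.61 CPM in control and 12.1, 11.2 and 11.4 CPM in tamoxifen+primidone libraries (edgeR adjusted p = 0.0605). Log2 fold changes were positive for 15 of the 21 T cell genes (median 0.555). Of 33 antigen presentation genes 0 passed (21 positive, median 0.09). Mzb1, a protein of plasma cells, rose, at 15.3, 15.8 and 18.3 CPM in control and 40.5, 26.6 and 31.1 CPM in tamoxifen+primidone libraries (0.99 ± 0.20, edgeR adjusted p = 0.0261). Cd68, a macrophage marker, fell (−0.59 ± 0.13). Each was the 1 call of its list, of 19 B and plasma cell genes (17 positive, median 0.42) and 31 macrophage genes (22 positive, median 0.22). Of 52 chemokine and cytokine genes Ltb, lymphotoxin beta (1.14 ± 0.18), and Tgfb3 rose and 2 fell (7.69%). Ccl11, the eosinophil attractant eotaxin, stood at 193, 158 and 179 CPM in control and 117, 57.6 and 72.1 CPM in tamoxifen+primidone libraries (−1.11 ± 0.27, edgeR adjusted p = 0.0483). The other was Cxcl17, a mucosal chemokine (−0.58 ± 0.15). Of 51 interferon-stimulated genes 1 fell, Ifi27l2b, and of 38 complement genes 1 rose, C9, which is also on the liver list. Hdc, histidine decarboxylase of mast cells and neutrophils, did not pass, at 9.22, 10.2 and 10.9 CPM in control and 23.8, 118 and 12.6 CPM in tamoxifen+primidone libraries, with tamoxifen+primidone 2 the highest. The calls of Mzb1 (0.107), Cd68 (0.119), Ltb (0.0511), Ccl11 (0.147), Cxcl17 (0.145), Ifi27l2b (0.133) and C9 (0.132) were lost in some of these fits, the number after each gene being the highest edgeR adjusted p. They were lost without control 1, 2 and 3, tamoxifen+primidone 1, 2 and 3 and tamoxifen 1 and 3.

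The shares called in further lists ran from 1.59% for potassium channels to 22.9% for serpins, against 5.35% of all genes. Carrier genes (194 tested, 4.12% called, against 5.35% of all genes) numbered 6 higher, Slc29a1, a nucleoside transporter (0.66 ± 0.09), Slc7a8, an amino acid transporter (0.74 ± 0.16), and Slc25a42, a mitochondrial coenzyme A carrier (0.79 ± 0.16), among them, and 2 lower. These were Slc16a12 (−1.70 ± 0.39) and Slc12a2, the sodium-potassium-chloride cotransporter, at 182, 176 and 213 CPM in control and 112, 117 and 123 CPM in tamoxifen+primidone libraries (−0.70 ± 0.09, edgeR adjusted p = 0.00429). Of 35 serpins 4 rose, Serpina1e, Serpina3k, Serpina1d (1.92 ± 0.39) and Serpinh1, and 4 fell: Serpinb8 (−0.85 ± 0.13), Serpina9 (−0.78 ± 0.12), Serpinb1a (−0.79 ± 0.17) and Serpinb5, maspin (−1.13 ± 0.27). In fatty acid synthesis Acaca, acetyl-CoA carboxylase (0.71 ± 0.16), rose with Scd2 (2 of 43). In endothelium Apln, apelin, rose, at 0.34, 0.321 and 0.567 CPM in control and 2.3, 1.93 and 2.31 CPM in tamoxifen+primidone libraries. Glycam1, a ligand of L-selectin on lymph node vessels, fell, at 3.06, 6.45 and 1.05 CPM in control and 0, 0.152 and 0.352 CPM in tamoxifen+primidone libraries. Gap43 (1.53 ± 0.27) and Ntrk2 (0.67 ± 0.15) of the nerve list, Krt83 of the keratins (1.95 ± 0.32) and Sned1 of the ovary and oviduct list (1.14 ± 0.21) rose. The nerve list (18 tested) and the ovary and oviduct list (9 tested) each had 11.1% called. Kcnk1, a potassium channel (−0.48 ± 0.10), fell, as did Topaz1 of the meiosis list, at 4.13, 3.69 and 5.15 CPM in control and 0.646, 0.152 and 0.956 CPM in tamoxifen+primidone libraries. Slc29a1, Slc12a2 and Serpinb8 kept their calls in all 9 fits that each left out 1 library. Not all fits kept Slc7a8 (0.101), Slc25a42 (0.0871), Slc16a12 (0.116), Serpina1d (0.0868), Serpina9 (0.0507), Serpinb1a (0.106), Serpinb5 (0.131), Acaca (0.122), Apln (0.0871), Glycam1 (0.112), Gap43 (0.0676), Ntrk2 (0.129), Krt83 (0.0549), Sned1 (0.0819), Kcnk1 (0.0985) and Topaz1 (0.0649), given with the highest edgeR adjusted p. Leaving out any of the 9 libraries cost at least 1 of these calls.

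No gene passed among 87 cytosolic ribosomal protein genes (78 positive, median 0.14), 96 nuclear-encoded respiratory chain genes (51 positive, median 0.01), 15 mast cell and eosinophil genes, 13 genes of stratified squamous epithelium and 8 of skeletal muscle. Their genes of smallest p were Rpl7l1, at 0.37 ± 0.10 (edgeR adjusted p = 0.0533), Ndufa6, at −0.27 ± 0.09 (0.114), Tpsb2, a mast cell tryptase, at −1.06 ± 0.37 (0.119), Krt6b, at 1.53 ± 0.58 (0.15), and Ckm, at −1.10 ± 0.54 (0.249). The mean log2 level of the ribosomal protein list was 0.287 in tamoxifen+primidone 1 and −0.095 and 0.033 in replicates 2 and 3. In control libraries it was −0.138, −0.038 and −0.049.

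**Figure D5:**
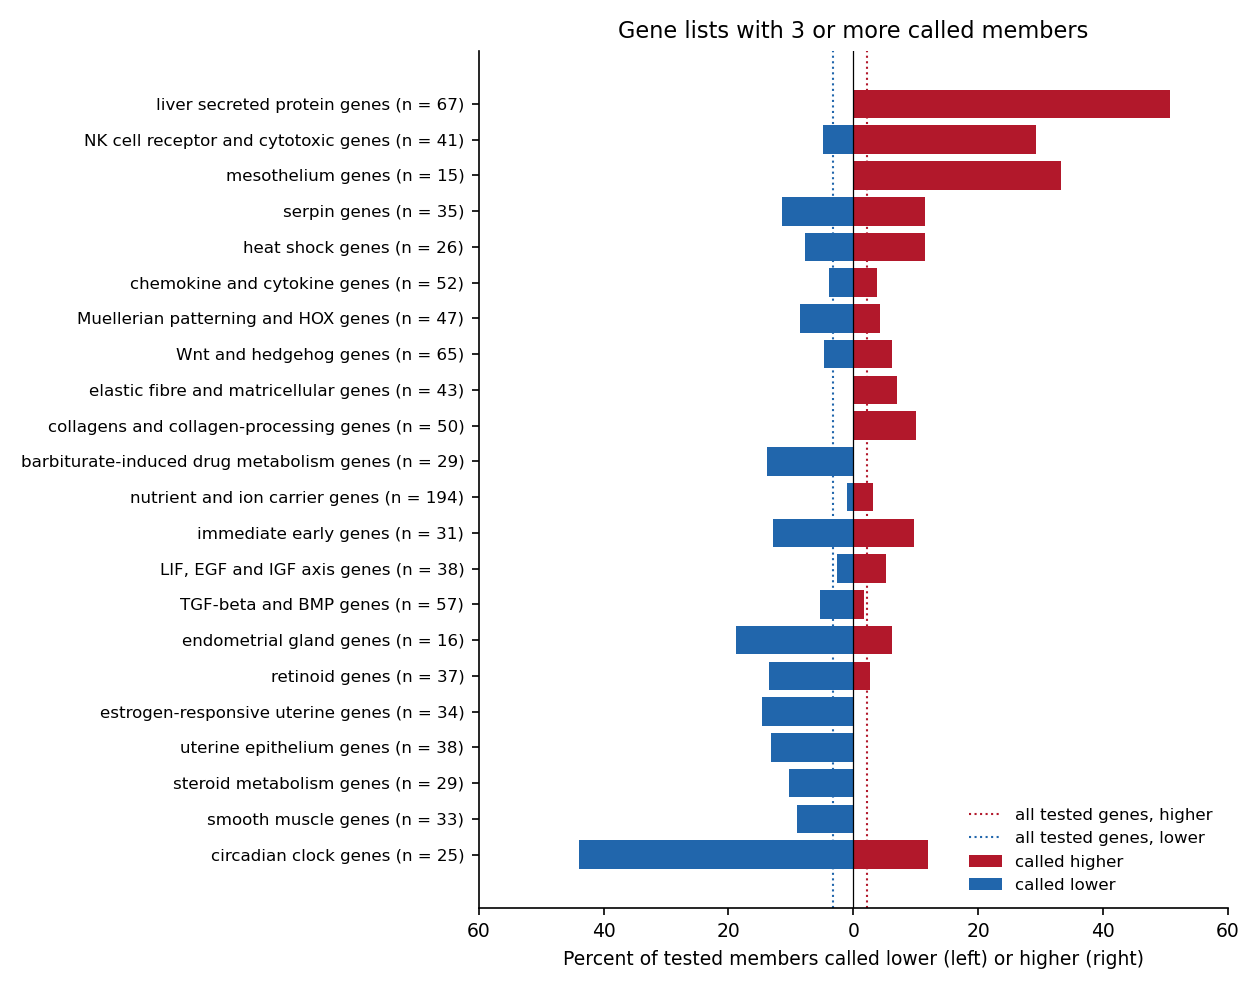
Bars give the percent of tested members called higher (right, red) or lower (left, blue) for each list with 3 or more called members, ordered by median log2 fold change, and dotted lines give the shares over all genes tested, 2.14% and 3.21%. The clock list has the longest bar to the left, the liver list the longest to the right.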

How the data were processed

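RNA from the uterus of 9 mice was sequenced, and labels gave each library its group and replicate. HISAT2, HTSeq, R 3.2.0, DESeq2 and the build GRCm39 are named in the submitters' processing notes. Annotation and strand setting were not stated in the sources used here, so reads of overlapping or antisense genes cannot be told apart. Raw read counts by gene symbol were deposited by the authors, along with FPKM values of the same genes, which divide counts by gene length and library size. No mitochondrially encoded gene is in the table.

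Counts were tested in R 4.3.3 with edgeR 4.0.16 (TMM, default low-count filter by group, robust quasi-likelihood test, two-sided), all 9 libraries in 1 fit with a coefficient per group and 6 residual degrees of freedom, and p-values were Benjamini-Hochberg adjusted over 15186 genes. Levels are CPM on TMM-scaled library sizes. A log2 fold change is given ± an approximate standard error, its size divided by the square root of the F statistic, rough for genes with few counts. The script was tested on simulated data. No pair of libraries in a group agreed within counting noise (chi-square per degree of freedom 19.57 to 78.47), so none was treated as a library deposited more than once.

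Genes named are, per direction, the 12 of smallest p among those without overlap and with a mean of 10 CPM or more in either group (clone-type symbols aside), the 5 called genes of highest level, up to 5 called members of each list per direction (or the 2 of smallest p where none was called), and Trpm3, Esr1 and Pgr. Other genes named in the text, such as further list members given as levels, were picked with their values in view. The members and lists were chosen with earlier results of these data known. Lists are described by counts and medians, with no set test, and 1 called clock gene is counted but not reported here. Promoters came from RefSeq (GRCm38.p6), and since that build is not the authors', no other coordinates are given. Alternatives were other scalings, no filter, DESeq2 1.42.0, limma 3.58.1 (voom, and log2(FPKM + 1) or log2(FPKM + 0.1)), the 6 libraries alone, a replicate block and each library left out.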

Additional observations from a re-analysis of the deposited data

How the results depend on the processing

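The direction of each called named gene against control was kept in every alternative. The 325 higher and 487 lower genes (111 and 93 by over 2-fold) became 894 and 988 (286 and 207) with DESeq2. With limma on log2(FPKM + 1) 674 were higher, and 66 and 59 changed by over 2-fold, with log2(FPKM + 0.1) 664 were higher and 318 lower, and without a filter 237 were lower, with 48 and 43 by over 2-fold; for these the cause was not tested. With 1 library left out, counts ran from 41 to 316 for genes higher, 81 to 484 for genes lower, 20 to 121 for those higher and 24 to 98 for those lower by over 2-fold, lowest without control 1, and of 152 named calls 106 were lost without control 1, 94 without control 3 and 71 without control 2; these fits have fewer samples. With RLE factors 819 genes were called, with upper-quartile factors 831, without a low-count filter 751, with limma-voom 745 and with the 6 libraries alone 624. Control and tamoxifen+primidone libraries of the same replicate number correlated by 0.01, −0.095 and 0.107, within the range of unlike numbers (−0.16 to 0.145). Tamoxifen libraries were not part of this check, and with 3 libraries a group it cannot exclude a shared batch or litter. The fit with a replicate block called 984 genes, 711 of them shared with the 812. Against tamoxifen, the 2 genes called became 9 with RLE factors, 21 without a low-count filter, 578 with DESeq2 and 53 with a replicate block, 1 with limma on log2(FPKM + 1) or log2(FPKM + 0.1) and 0 with it unfiltered (2696 at an unadjusted p under 0.05), and 0 to 85 with 1 library left out; the cause was not tested. Against tamoxifen, the sign of LOC118568312 (−0.003) and Per3 (−0.089) turned without tamoxifen+primidone 1 and that of Serpinh1 (−0.162) without tamoxifen+primidone 3, none of which had passed. With single libraries left out these 3 ran from −0.003 to 0.258, from −0.089 to 0.33 and from −0.162 to 0.206. The number of libraries, 3 a group, and few counts in the Klra, Mup and Topaz1 genes limit precision.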

Other observations

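The groups below were put together after the values were seen, around genes that had passed, so their counts describe these libraries and support nothing further. Several concern secretion. Of 41 genes of vesicle docking and exocytosis 9 fell and 0 rose, among them the synaptotagmins Syt16, at 13.8, 10.9 and 12.2 CPM in control and 2.79, 4.1 and 4.58 CPM in tamoxifen+primidone libraries (−1.69 ± 0.21, edgeR adjusted p = 0.00429), and Syt8, at 66.1, 54.9 and 56.8 CPM in control and 34.8, 35.3 and 31.2 CPM in tamoxifen+primidone libraries (−0.81 ± 0.10, edgeR adjusted p = 0.00401), with Mlph, melanophilin (−0.67 ± 0.13), and Vamp8, a vesicle fusion protein (−0.39 ± 0.07). Of 75 glycosyltransferase and related genes 10 fell and 0 rose, including Fut9, a fucosyltransferase (−0.93 ± 0.15), Gmds, the first enzyme of GDP-fucose synthesis (−0.78 ± 0.12), Chst8, a sulfotransferase (−0.79 ± 0.11), and B3gnt3, which extends mucin-type sugars (−0.72 ± 0.13). Of 18 trypsin-like proteases and their relatives 5 fell: Hgfac, Tmprss6 (−1.80 ± 0.32), Tmprss11e (−1.18 ± 0.18), Tmprss11g (−1.25 ± 0.29) and Tmprss2 (−0.40 ± 0.09). The shares called in these 3 groups were 22%, 13.3% and 27.8%. With 1 library left out, 2 to 9, 3 to 8 and 2 to 5 of their members were called, fewest without control 1 or control 3 in each, and for the proteases also without tamoxifen+primidone 1.

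Genes of nucleolar ribosome assembly rose in 7 of 54 cases and fell in 0, with 51 positive log2 fold changes, for example Fbl, fibrillarin, at 80.5, 86.6 and 94.5 CPM in control and 118, 113 and 132 CPM in tamoxifen+primidone libraries (0.47 ± 0.10, edgeR adjusted p = 0.0255). Nucleotide and serine synthesis added 4 of 29, with Cad, the first enzyme of pyrimidine synthesis, at 34.8, 37.9 and 37.8 CPM in control and 61.7, 63.9 and 79.7 CPM in tamoxifen+primidone libraries (0.90 ± 0.13, edgeR adjusted p = 0.00777), and Phgdh, the first of serine synthesis (1.01 ± 0.19). The shares called were 13% of the nucleolar and 13.8% of the synthesis genes. Without control 1, 0 of the nucleolar genes and 1 of the synthesis genes were called. Beside Dio2, the thyroid hormone group held Dio3, the deiodinase that inactivates the hormone, at 12.1, 8.54 and 13.5 CPM in control and 6.64, 4.89 and 3.42 CPM in tamoxifen+primidone libraries (−1.19 ± 0.25, edgeR adjusted p = 0.027), and Tshr, the thyrotropin receptor (−0.77 ± 0.17), which both fell, and Ttr, which rose. The share called was 33.3% of 12 thyroid hormone genes tested, with 1 to 4 called when 1 library was left out, fewest without control 1. Of 17 ectoenzymes that split nucleotides outside the cell, 5 fell, among them Entpd8 (−1.12 ± 0.17) and Enpp3 (−0.54 ± 0.12), and 1 rose, Entpd3 (35.3% called). Without control 1, 0 of these ectoenzymes were called. F3, tissue factor, the starter of coagulation, fell, at 269, 249.9 and 279 CPM in control and 149.7, 104 and 98.6 CPM in tamoxifen+primidone libraries (−1.18 ± 0.14, edgeR adjusted p = 0.00429), with 99.9, 102 and 112 CPM in tamoxifen libraries, while the 5 coagulation genes that rose were Fga, Fgb, Fgg, F2 and F10, of which the first 4 are on the liver list. Of 26 coagulation genes tested 23.1% were called. With 1 library left out, 0 to 5 rose and 1 to 6 were called in all, fewest without control 1.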
